A study of Mus musculus with 37 samples.

Results

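The response of the noncancerous ureter to the bladder carcinogen N-butyl-N-(4-hydroxybutyl)nitrosamine (BBN) was compared with the response of the bladder, by whole transcriptome sequencing (WTS) of 22 of the 37 libraries of the series. Ureter and bladder are lined by the same kind of epithelium, the urothelium, and the comparison asks which genes respond to BBN in 1 organ only, in both, or in opposite directions. All mice were wild-type female BALB/c. BBN was given in drinking water at 0.05% from 6 to 7 weeks of age for 18 weeks, and untreated mice drank tap water. UN stands for the noncancerous ureter of BBN-treated mice (7 libraries from 7 mice), and each UN library came from a mouse whose other ureter bore a tumor. U is the ureter of untreated mice (6 libraries, the right and left ureters of 3 mice). BB is the bladder of BBN-treated mice, labelled N (bladders 2, 5, 7, 8, 9 and 10), and B is the bladder of the same 3 untreated mice that gave U. Bladders 1, 3 and 4, whose RNA integrity number (RIN) was under 5, and bladder 6, labelled T for tumor, were left out, as were the 11 libraries of cancerous ureter. The RIN minimum was not applied to the ureters, and UN 6 and U R1, both under 5, were kept. Mice 2, 7 and 9 gave both a UN and a BB library. The p-values take the libraries as independent, although those of U and B came from 3 mice.

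The response of an organ is its log2 fold change with BBN (UN against U, or BB against B), and the difference of responses is the ureter response minus the bladder response, so that a positive difference means a greater rise or a lesser fall in the ureter. A gene was called at a false discovery rate (FDR) under 0.1 and a change of at least 2-fold with edgeR's quasi-likelihood test. Levels are CPM (counts scaled to a common library total) and are compared within a gene only. Total counts per library ranged from 4675081 to 14973904 in UN, 12980008 to 18793560 in U, 11150685 to 15104379 in BB and 14348701 to 16617435 in B. UN libraries varied far more than the others, with a common dispersion of 0.407 against 0.0383 in U, 0.178 in BB and 0.0242 in B, and the fit shares its estimate of spread over the groups. UN 2 and UN 6 stood apart from the other UN libraries. UN 6 had the lowest total. UN 2 was low in urothelial marker RNA, with Upk2 at 0.368 CPM and Upk1a at 1.1 CPM, against 69.5 to 133 CPM and 218 to 404 CPM in U. In these bulk samples, fewer cells of a type and less RNA per cell cannot be told apart.

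The urothelium has a basal layer marked by keratins such as Krt5, Krt14 and Krt15 and a surface of umbrella cells, whose membrane plaques are built of uroplakins. BBN is oxidized in the body to a carboxylic acid that is excreted in urine, so that the lining of the urinary tract is exposed to it, and long exposure is known for inflammation, loss of umbrella cells, squamous change and urothelial cancer in rodents. Type I interferon is an antiviral signal, and its target genes carry a shared element in their promoters.

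Of 16592 genes tested, the difference of responses was called in 1122 (6.76%), with 782 (4.71%) greater in the ureter and 340 (2.05%) greater in the bladder. At an unadjusted p under 0.05 there were 3081 genes. With the mouse as a block, the counts were 716 and 517, and 706 of the 1122 genes (62.9%) were called. With the right and left U libraries of a mouse summed they were 266 and 149, and without B 1, B 2 or B 3 they were 395 and 162, 465 and 202, or 423 and 182. Of 66 genes described singly below with a called difference, 32 were no longer called with U summed per mouse, 26 with the block and 23 with all 9 bladders labelled N. In the ureter, 2290 genes (13.8%) rose and 520 (3.13%) fell. In the bladder, 1664 (10%) rose and 1514 (9.12%) fell. The 1208 genes called in both organs were 43.0% of the ureter list and 38.0% of the bladder list, and 1164 of them changed in the same direction, 964 up and 200 down. Of these 1164, the size of the response differed between the organs in 111. A response in the ureter only, with no call in the bladder and a called difference, was found for 139 genes, of which 119 rose and 20 fell. A response in the bladder only was found for 686 genes, of which 190 rose and 496 fell. A further 44 genes moved in opposite directions, 33 of them up in the ureter and down in the bladder. Many genes passed in 1 organ without a called difference, 1463 in the ureter and 1284 in the bladder, and for these an organ-specific response was not shown. The remaining calls were 142 genes whose difference passed although neither response did. The median response of all genes was 0.09 in the ureter and 0.03 in the bladder on the log2 scale, with median standard errors (SE) of 0.30 and 0.38.

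**Figure D1:**
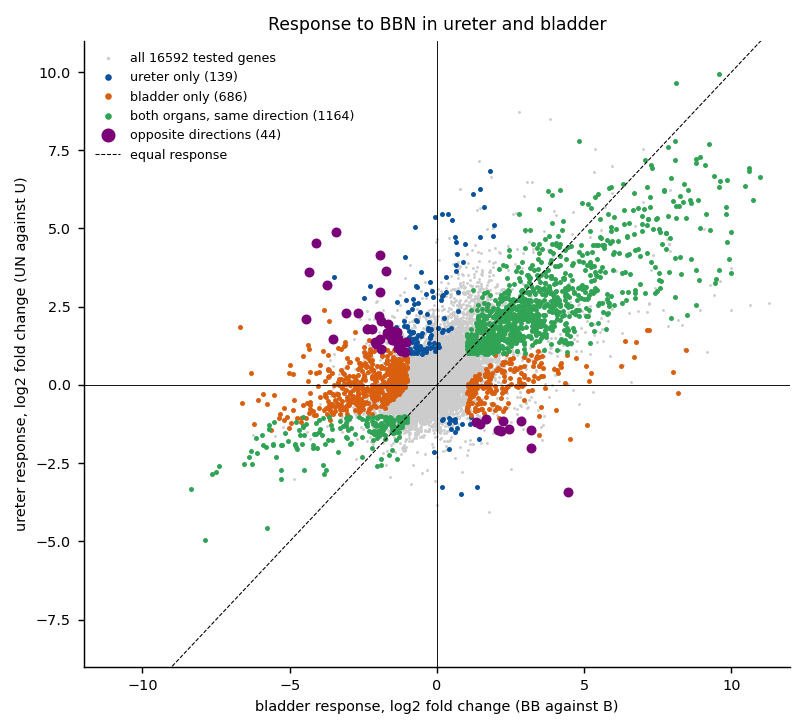
Log2 fold change of each gene with BBN in the bladder (BB against B, x axis) and in the ureter (UN against U, y axis), with a point for each of the 16592 genes tested and a dashed line of equal response. The 1164 genes that responded in both organs lie along the diagonal, the 686 bladder-only genes along the horizontal axis, the 139 ureter-only genes along the vertical axis, and the 44 opposite genes in the upper left and lower right.

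"Only" here means past the thresholds in 1 organ with a called difference, and not that the other organ stood still. Of the 119 genes that rose in the ureter only, all BB libraries lay on 1 side of all B libraries in 25, and of the 20 that fell, in 6. All UN libraries lay beyond all U libraries in 27 of the 119 and in 9 of the 20. Over all genes tested, such separation was found for 648 (3.91%) between UN and U and for 5888 (35.5%) between BB and B, where the groups are 6 and 3. In the bladder-only class, BB and B were separate in 174 of the 190 genes that rose and in 486 of the 496 that fell.

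The genes that moved in opposite directions started from different levels in the 2 organs. All 33 genes that rose in the ureter and fell in the bladder were lower in U than in B, 27 of them by a called amount, and 10 of the 11 that moved the other way were called higher in U, against 24.2% of all genes called between U and B in either direction. U and B are the baselines of the contrasts that chose these genes, so the choice itself favours this order and nothing is read from it. In none of the 33 did all 7 UN libraries exceed all U libraries, whereas BB lay wholly below B in 29.

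Bbox1, which makes carnitine in its last step, was nearly absent from U at 0 to 0.341 CPM (median 0.164), and UN reached 6.19 CPM with a low of 0 and a median of 3.13. In the bladder it fell from 6.98, 8.4 and 9.31 CPM in B to 0.934 to 4.98 CPM in BB (median 1.62), without overlap. The ureter response was 4.15 (SE 0.80) and the bladder response -1.95 (SE 0.76), a difference of 6.10 (SE 1.09, edgeR adjusted p = 0.00251). The bladder fall of Bbox1 was lost in 14 of 41 alternatives, among them all 9 bladders labelled N (-1.57, adjusted p = 0.137) and the library code range as covariate (-1.33, adjusted p = 0.286). Bbox1 lies at chr2:110262697-110314560 (GRCm38).

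Ugt2b34, a glucuronosyltransferase that conjugates small molecules for excretion, ranged from 1.55 to 4.43 CPM in U (median 2.84) and from 0.613 to 93.8 CPM in UN (median 36.9), and the low value was that of UN 2. B held 204, 234 and 253 CPM, above every BB library (23.3 to 130 CPM, median 58.4). The responses were 3.63 (SE 0.67) and -1.73 (SE 0.70), with a difference of 5.35 (SE 0.95, edgeR adjusted p = 0.00219). With the mouse as a block, the difference of Ugt2b34 was 4.24 and no longer passed (adjusted p = 0.112). Its fall in the bladder was lost in 16 of 41 alternatives, among them U summed per mouse (adjusted p = 0.124). Reads of Ugt2b genes can be shared among close paralogs, so its level is uncertain.

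Esm1, an endothelial proteoglycan, was at 0.385 to 1.19 CPM in U (median 0.856) and 1.03 to 17.3 CPM in UN (median 1.56), and UN 2 held the highest value. Its responses were 2.29 and -3.10 (difference 5.39, SE 1.14, edgeR adjusted p = 0.00731). Without UN 2 the ureter response was 1.21 and no longer passed (adjusted p = 0.165), so the call of Esm1 in opposite directions rests on that library, while its difference still passed (4.30). The ureter response did not pass with U summed per mouse either (adjusted p = 0.211). Its B libraries held 6.69, 8.28 and 9.15 CPM and its BB libraries 0 to 2.47 CPM. The fibril-associated collagen gene Col12a1 rose from 14.9 to 34.3 CPM in U (median 26.5) to 29 to 205 CPM in UN (median 53.4), and fell from 93.4, 123 and 132 CPM in B to 12.9 to 71.9 CPM in BB (median 31.1). Its responses were 1.60 and -1.64 (difference 3.24, SE 0.66, edgeR adjusted p = 0.00607). Fstl4, of the follistatin-like family, had responses of 2.98 and -1.93 (difference 4.91, SE 0.98, edgeR adjusted p = 0.00512). The bladder fall of Fstl4 was lost in 6 of 41 alternatives, and that of Col12a1 in 2, both with the library code range as covariate among them. The ureter rise of Col12a1 did not pass with U summed per mouse (adjusted p = 0.131), nor that of Fstl4 with the mouse as random effect (adjusted p = 0.119).

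In the other sense, Chdh, the mitochondrial enzyme that oxidizes choline toward betaine, fell in the ureter from 54 to 118 CPM in U (median 86.4) to 6.44 to 49 CPM in UN (median 18.2), without overlap. In the bladder it rose from 0.675, 0.952 and 1.4 CPM to 5.84 to 20.5 CPM (median 7.19), also without overlap. The responses were -2.02 (SE 0.39) and 3.19 (SE 0.60), and the difference of -5.21 (SE 0.73, edgeR adjusted p = 0.000281) passed under every alternative run. Chdh lies at chr14:30009023-30040527. In the mice with both organs, Chdh stood at 16.1 CPM in UN and 7.72 CPM in BB of mouse 2, at 20.9 and 20.5 CPM in mouse 7, and at 49.0 and 8.58 CPM in mouse 9. The ranges of UN and BB overlapped, while those of U and B lay far apart.

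Phgdh, which opens serine synthesis from a glycolytic intermediate, followed the same pattern. It ranged from 206 to 463 CPM in U (median 301) and from 40.1 to 237 CPM in UN (median 83.9), while B held 9.2, 15.4 and 20.1 CPM and BB 54.8 to 129 CPM (median 70.8). The ranges of U and UN overlapped and those of B and BB did not. Its responses were -1.40 (SE 0.33) and 2.46 (SE 0.48), with a difference of -3.86 (SE 0.59, edgeR adjusted p = 0.000523).

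Kcns3, Ablim3 and Ffar4 were 3 further genes of this sense. The potassium channel subunit gene Kcns3 had responses of -1.43 and 3.2 (difference -4.63, SE 0.74, edgeR adjusted p = 0.000811). Ablim3, an actin-binding LIM protein gene, had responses of -1.15 and 2.85 (difference -4.00, SE 0.59, edgeR adjusted p = 0.000391). Ffar4, a receptor for long-chain fatty acids, had responses of -1.16 and 2.24 (difference -3.40, SE 0.70, edgeR adjusted p = 0.00614). Ablim3 is an example of the overlap in UN, with 5.58 to 43.5 CPM (median 16.8) against 35.1 to 61.8 CPM in U (median 44.5), while B at 3.17, 4.6 and 5.34 CPM lay below all of BB at 14.3 to 54.7 CPM (median 30.5). The ureter falls of Kcns3 (adjusted p = 0.117), Ablim3 (adjusted p = 0.126) and Ffar4 (adjusted p = 0.187) did not pass with U summed per mouse, nor did those of Ablim3 and Ffar4 with all 10 BBN bladders.

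Of 14 adipocyte markers, 4 were called lower in the ureter and 1 in the bladder, against 3.13% and 9.12% of all genes, with median responses of -1.12 and -1.38. Their summed level ranged from 64984 to 104013 CPM in U (median 72736) and from 10176 to 94636 CPM in UN (median 38565), against 590 to 2541 CPM in B and 165 to 911 CPM in BB. Adipoq, which fat cells secrete, ranged from 3118 to 5161 CPM in U and from 410 to 4270 CPM in UN, and from 3.86 to 106 CPM in B. The part of fat in the ureter falls of Chdh, Phgdh, Kcns3, Ablim3 and Ffar4 was not tested.

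**Figure D2:**
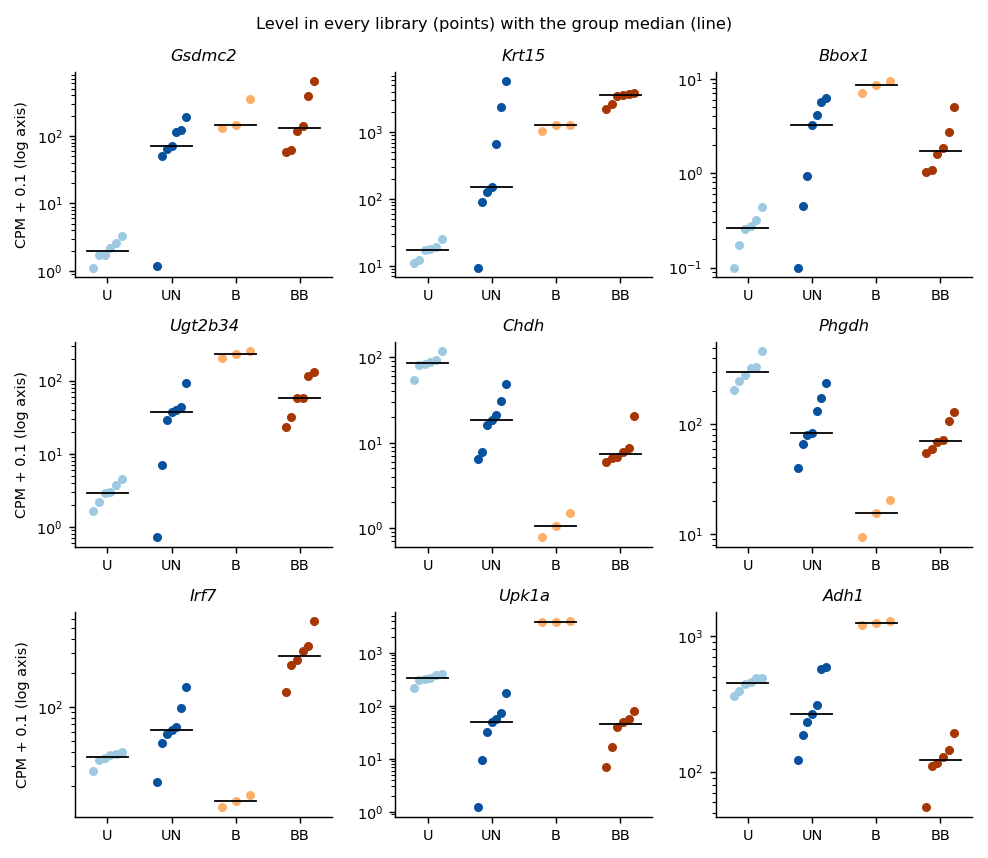
CPM plus 0.1 on a log axis for 9 genes in every library of U, UN, B and BB (points), with a line at the group median. Bbox1 and Ugt2b34 rise from U to UN and fall from B to BB, Chdh and Phgdh do the reverse, and for Gsdmc2 and Krt15 the UN libraries spread over the widest range.

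Among the 5 genes that the naming rule took from the class that rose in the ureter only, 3 were gasdermin C genes. Gasdermins are pore-forming proteins of epithelia and immune cells. Gsdmc2 (chr15:63824346-63845177) was at 1.03 to 3.23 CPM in U (median 1.87) and at 1.1 to 191 CPM in UN (median 70), with UN 2 the only UN library within the range of U. In the bladder it stood high with and without BBN, at 132, 146 and 351 CPM in B and 57.5 to 646 CPM in BB (median 130). Its responses were 5.45 (SE 0.81) and 0.17 (SE 0.81), with a difference of 5.27 (SE 1.06, edgeR adjusted p = 0.00545).

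Gsdmc3 (chr15:63857724-63878558) showed the same levels on a lower scale, with a median of 0.833 CPM in U, 35.9 CPM in UN, 45.3 CPM in B and 40.3 CPM in BB, and a difference of 4.78 (SE 1.17, edgeR adjusted p = 0.0206). Gsdmc (chr15:63775968-63808759) had 3 counts over all U libraries and 186 in UN, a ratio of 62.6 (95% interval 21.1 to 306, counting error only). These 3 genes are neighbours of near-identical sequence, so they are not independent and the split of reads among them is uncertain. The differences of Gsdmc2 (4.81, adjusted p = 0.205), Gsdmc3 (4.25, adjusted p = 0.262) and Gsdmc (4.64, adjusted p = 0.113) no longer passed with the mouse as a block. When U was summed per mouse, Gsdmc2 passed (adjusted p = 0.06) and Gsdmc3 (adjusted p = 0.127) and Gsdmc (adjusted p = 0.111) did not.

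Krt15, a keratin of basal urothelium (chr11:100131758-100135928), rose from 10.9 to 25.3 CPM in U (median 17.3) to 9.32 to 5787 CPM in UN (median 153). In the bladder it was already high at 1029, 1260 and 1289 CPM in B, and every BB library was higher, at 2198 to 3862 CPM (median 3591). The bladder response of 1.46 (SE 1.11) did not pass in the edgeR fit, and it did with a weight per group in voom (1.43, adjusted p = 0.0828). The difference was 4.81 (SE 1.32, edgeR adjusted p = 0.039), and 1.52 (adjusted p = 0.622) with the mouse as a block. Beside the untreated mice, only mice 2, 7 and 9 inform the difference in that fit. In UN of those mice Krt15 stood at 9.32, 2354 and 89.3 CPM. Its adjusted p was 0.193 with U summed per mouse.

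Spp1, Trem2, Timp1, Tpsab1 and Thy1 also rose in the ureter only. Spp1, which encodes osteopontin, had responses of 6.85 (SE 1.18) and 1.80 (SE 1.24) and a difference of 5.05 (SE 1.48, edgeR adjusted p = 0.0521), with a median of 1.59 CPM in U, 35.7 CPM in UN, 5.87 CPM in B and 15.3 CPM in BB. Trem2, a lipid receptor of macrophages, rose from 1.16 to 2.77 CPM in U (median 1.77) to 3.14 to 65.3 CPM in UN (median 20.4), without overlap. Its levels in B (2.06, 2.74 and 5.03 CPM) lay within those of BB (1.67 to 7.67 CPM), and the difference was 3.0 (SE 0.77, edgeR adjusted p = 0.0271).

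Timp1, an inhibitor of matrix metalloproteinases, rose from 0.581 to 1.79 CPM in U to 4.89 to 191 CPM in UN and had a difference of 4.07 (SE 1.17, edgeR adjusted p = 0.0491). The mast cell tryptase gene Tpsab1 had a difference of 2.59 (SE 0.74) and Thy1, found on T cells and fibroblasts, of 2.13. With the mouse as a block, Spp1 (1.85, adjusted p = 0.246), Timp1 (3.17, adjusted p = 0.119), Tpsab1 (1.52, adjusted p = 0.486) and Thy1 (1.38, adjusted p = 0.241) no longer passed. Trem2 passed with the block, but not with U summed per mouse (2.98, adjusted p = 0.135) or with all 9 bladders labelled N (1.71, adjusted p = 0.479). With U summed, the adjusted p of Spp1, Timp1, Tpsab1 and Thy1 ranged from 0.182 to 0.272, and that of Mrc1 was 0.201. The summed level of the 14 macrophage markers was 803 to 1325 CPM in U, 662 to 11968 CPM in UN, 922 to 1025 CPM in B and 759 to 1756 CPM in BB. Of these markers 9 rose in the ureter and 2 in the bladder, against 13.8% and 10% of all genes. The 2 with a called difference (4.71% of all genes in that direction, 5 markers with the block and 0 with U summed per mouse) were Trem2 and the mannose receptor gene Mrc1, whose responses of 0.79 and -0.82 did not pass although their difference did (1.61, edgeR adjusted p = 0.0689).

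The genes that fell in the ureter only were few. Rhbg, an ammonium transporter, dropped from 49.2 to 89.6 CPM in U (median 66.1) to 6 to 30.6 CPM in UN (median 15.2), without overlap. B (9.66, 9.81 and 12.4 CPM) lay within the range of BB (8.89 to 18.5 CPM). The responses were -2.04 (SE 0.28) and 0.40 (SE 0.35), and the difference was -2.44 (SE 0.46, edgeR adjusted p = 0.00364). Col23a1, a transmembrane collagen gene, fell from 29 to 55.2 CPM in U to 2.1 to 13.3 CPM in UN, while B held 1.8, 2.21 and 2.56 CPM and BB 0.739 to 5.61 CPM (difference -3.41, SE 0.80, edgeR adjusted p = 0.0149). With all 9 bladders labelled N, Rhbg did not pass (-2.10, adjusted p = 0.176).

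Prkar2b, a regulatory subunit of protein kinase A abundant in fat, ranged from 759 to 1017 CPM in U and from 106 to 809 CPM in UN. In the bladder it was low, but BB (61.2 to 96 CPM) exceeded B (41.6, 48.2 and 57.2 CPM) throughout. The difference of Prkar2b was -2.14 (SE 0.57, edgeR adjusted p = 0.0332), and -2.04 (adjusted p = 0.128) with the mouse as a block. Casq1, which stores calcium in striated muscle, had a difference of -4.60 (SE 1.30, edgeR adjusted p = 0.0459), and Cyp2u1, a cytochrome P450, of -2.16 (SE 0.61, edgeR adjusted p = 0.044). The ureter response of Cyp2u1 was -1.03, and its bladder response of 1.14 lay just short of a call (adjusted p = 0.106), so that its place among the ureter-only genes rests on the threshold. Casq1 (adjusted p = 0.155), Cyp2u1 (adjusted p = 0.164) and Prkar2b (adjusted p = 0.126) did not pass with U summed per mouse. The adipocyte sums given above apply to this group too.

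In the bladder only, Osr2, a zinc finger transcription factor gene, rose from 0, 0 and 0.524 CPM in B to 1.79 to 10.1 CPM in BB (median 6.59). In the ureter it ranged from 19.8 to 34.7 CPM in U and from 1.05 to 32.3 CPM in UN. Its ureter response of -1.28 did not pass, but a ureter fall was called in 4 of 41 alternatives. The difference of Osr2 was -6.37 (SE 1.32, edgeR adjusted p = 0.00636) and passed under every alternative run. Btc, which encodes betacellulin, a ligand of the epidermal growth factor receptor, rose from 3.2, 4.11 and 4.12 CPM in B to 15.5 to 24.7 CPM in BB (median 21.3). In the ureter the medians were 7.63 CPM in U and 7.72 CPM in UN, and the response was 0.21 (SE 0.26). The difference of Btc was -2.26 (SE 0.43, edgeR adjusted p = 0.00398), and it was the 1 of 13 genes of the EGF receptor list with a called difference, near the 6.76% of all genes.

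Cyp2a5, Cyp4a12a and Cyp4a12b, which encode P450 enzymes, rose in the bladder only and were almost unread there without BBN. Cyp2a5 had 1 count over the B libraries and 659 over BB, a ratio of 357 (95% interval 63.9 to 14129, counting error only), and a difference of -7.60 (edgeR adjusted p = 0.0689). Cyp4a12a had 2 and 494 counts, a ratio of 134 (36.9 to 1108), and Cyp4a12b a difference of -5.37 (SE 1.63, edgeR adjusted p = 0.0614). The 2 Cyp4a12 genes are near-identical copies and cannot be told apart with certainty. Cyp2a5 (-5.90, adjusted p = 0.244) and Cyp4a12a (-3.60, adjusted p = 0.281) did not pass with the block. None of the 3 passed with U summed per mouse (adjusted p from 0.123 to 0.173) or with all 9 bladders labelled N (adjusted p from 0.138 to 0.244), and Cyp4a12a (adjusted p = 0.117) and Cyp4a12b (adjusted p = 0.108) did not with the RIN minimum applied to the ureters. Tgm5, a transglutaminase of stratified epithelia, had a difference of -5.03 (SE 1.45, edgeR adjusted p = 0.0484). Ccne1, the cyclin that starts DNA replication, had a difference of -2.06 (SE 0.62, edgeR adjusted p = 0.0608). The glycolytic genes Ldha and Pgk1, the 2 of 18 of their list with a called difference (2.05% of all genes in that direction), had differences of -1.45 (SE 0.49, edgeR adjusted p = 0.0956) and -1.06 (SE 0.34, edgeR adjusted p = 0.0843), and Ldha did not pass with the block (-1.22, adjusted p = 0.191). With U summed per mouse, Tgm5 (adjusted p = 0.149), Ccne1 (adjusted p = 0.175), Ldha (adjusted p = 0.257) and Pgk1 (adjusted p = 0.24) were not called, nor were they with all 9 bladders labelled N.

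A fall in the bladder only was found for 496 genes. Dmgdh, which breaks down dimethylglycine after choline has been oxidized to betaine, fell from 4.97, 5.7 and 7.73 CPM in B to 0 to 0.171 CPM in BB, while U held 0 to 0.326 CPM and UN 0 to 2.09 CPM. Its difference of 8.53 (SE 1.59, edgeR adjusted p = 0.00329) was 6.85 (adjusted p = 0.147) with the mouse as a block. Dab1, an adaptor of the reelin receptors, fell from 18.2, 20.4 and 21.1 CPM to 0 to 0.511 CPM, and the difference was 6.04 (SE 1.16, edgeR adjusted p = 0.00409). The ureter response of Dab1 was -0.59 and did not pass, but a ureter fall was called in 6 of 41 alternatives. UN 6 was far above the other UN libraries in Dab1. With all 9 bladders labelled N, the differences of Dmgdh (4.01, adjusted p = 0.459) and Dab1 (1.60, adjusted p = 0.741) did not pass.

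Cela1, an elastase gene, fell from 67.2, 70 and 79 CPM in B to 1.39 to 8.84 CPM in BB, with 7.32 to 11.3 CPM in U and 1.51 to 123 CPM in UN (difference 5.67, SE 1.23, edgeR adjusted p = 0.00928). The 123 CPM was UN 6. Without that library the ureter response went from 1.28 to -0.75, neither past the test, and the difference was 3.63 and still passed. Wfdc15b, of the WAP four-disulfide core family, fell from 91.6, 93.3 and 103 CPM to 0.207 to 2.96 CPM (difference 5.14, SE 1.01, edgeR adjusted p = 0.00455). The ureter response of Wfdc15b was -0.63 and did not pass, but a ureter fall was called in 6 of 41 alternatives. Fam25c had a difference of 5.22 (SE 1.08, edgeR adjusted p = 0.00653), and of 2.35 (adjusted p = 0.106) with the block and 3.35 (adjusted p = 0.22) with all 9 bladders labelled N.

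Genes that metabolize foreign compounds were among these falls. Adh1, an alcohol dehydrogenase that also oxidizes retinol (chr3:138260991-138290698), fell from 1194, 1234 and 1284 CPM in B to 54.4 to 192 CPM in BB (median 122). In the ureter it was at 359 to 493 CPM in U (median 453) and 123 to 592 CPM in UN (median 264), and the groups overlapped. The responses were -0.43 (SE 0.31) and -3.32 (SE 0.38), a difference of 2.89 (SE 0.49, edgeR adjusted p = 0.00155). In mice 2, 7 and 9 Adh1 was at 310, 234 and 264 CPM in UN and at 116, 54.4 and 144 CPM in BB, lower in the bladder in 3 of 3.

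Gstm1, which conjugates glutathione, fell from 12980, 14197 and 14394 CPM in B to 457 to 1752 CPM in BB (median 1322), and ranged from 2309 to 3902 CPM in U and 728 to 4436 CPM in UN (difference 2.67, SE 0.63, edgeR adjusted p = 0.0152). Gstm genes are close paralogs, so part of its reads may be theirs. Its adjusted p was 0.104 with U summed per mouse. Cyp1a1, the P450 induced through the aryl hydrocarbon receptor, fell from 26.7, 42.7 and 52 CPM to 0.463 to 4.15 CPM, while its ureter response was -0.02 (difference 4.01, SE 0.90, edgeR adjusted p = 0.0117). Over the 28 xenobiotic metabolism genes, 9 rose and 0 fell in the ureter and 8 rose and 7 fell in the bladder. Of these, 5 had a called difference toward the ureter and 1 toward the bladder, against 4.71% and 2.05% of all genes, and the median difference was 0.69 against 0.08 over all genes. Under the block, 7 were called toward the ureter and 3 toward the bladder, and the median difference was 0.11.

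Uroplakin genes fell in the bladder from levels far above those of the ureter. Upk1a (chr7:30603092-30612847) was at 3743, 3859 and 3957 CPM in B and 6.98 to 80.2 CPM in BB (median 44.3). It fell in the ureter as well, from 218 to 404 CPM in U (median 330) to 1.1 to 176 CPM in UN (median 50.1), so it counts among the genes that fell in both organs with a called difference. The responses were -2.54 (SE 0.65) and -6.54 (SE 0.87), a difference of 4.00 (SE 1.01, edgeR adjusted p = 0.0248). Upk2 was called in the bladder only, where it fell from 967, 997 and 1034 CPM to 12.2 to 73.4 CPM, with 69.5 to 133 CPM in U and 0.368 to 102 CPM in UN (difference 4.06, SE 0.92, edgeR adjusted p = 0.0118). Its ureter response was -1.12 and did not pass, but a ureter fall was called in 3 of 41 alternatives.

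Snx31, a sorting protein that binds uroplakins, had a difference of 3.65 (SE 0.98, edgeR adjusted p = 0.0355) and Upk3b of 2.49 (edgeR adjusted p = 0.069), and Upk3a did not pass (3.38, SE 1.18, edgeR adjusted p = 0.108). The ureter responses of Snx31 and Upk3b were -1.38 and -1.14 and did not pass. A ureter fall was called in 8 and 10 of 41 alternatives, so their place among the bladder-only genes rests on the thresholds. Of the 14 uroplakin and umbrella cell genes, 6 fell and 0 rose in the bladder, 1 fell and 1 rose in the ureter, and 4 had a called difference, all toward the ureter, against 4.71% of all genes. With U summed per mouse 1 did. Without UN 2, 10 of the 14 did, Upk3a among them (3.60, adjusted p = 0.0215). With the mouse as a block 0 did, and the differences were 1.98 for Upk1a (adjusted p = 0.392), 2.35 for Upk2 (adjusted p = 0.349), 2.11 for Snx31 (adjusted p = 0.354) and 2.04 for Upk3b (adjusted p = 0.285). With U summed per mouse, Upk2 passed (adjusted p = 0.0958) and Upk1a (adjusted p = 0.149), Snx31 (adjusted p = 0.178) and Upk3b (adjusted p = 0.248) did not. The sum of the list was 25496 to 27018 CPM in B, 6239 to 12003 CPM in BB, 2826 to 5405 CPM in U and 64 to 10741 CPM in UN.

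Some genes of the signals that the urothelium and the stroma exchange fell in the bladder too. Shh, the Hedgehog ligand made by urothelium, dropped from 49.7, 57.7 and 62.5 CPM in B to 1.82 to 6.91 CPM in BB (median 3.84), against 4.99 to 11.5 CPM in U and 0 to 7.64 CPM in UN. Its difference was 3.03 (SE 0.73, edgeR adjusted p = 0.0183), and 2.66 (adjusted p = 0.197) with the block. Hhip, which binds and restrains Hedgehog ligands, fell in both organs with a difference of 2.90 (edgeR adjusted p = 0.0447), and Lef1, a Wnt effector that fell in the bladder only, had a difference of 2.89 (edgeR adjusted p = 0.0503).

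Wnt2, a Wnt ligand, was called in the ureter only. It was at 0.807 to 1.96 CPM in U and 2.86 to 22.3 CPM in UN, without overlap, and at 23.9, 29.3 and 29.6 CPM in B and 6.07 to 46.2 CPM in BB (difference 3.31, SE 0.78, edgeR adjusted p = 0.0151). Of 24 Hedgehog, BMP and Wnt genes, 10 fell and 2 rose in the bladder, 2 fell and 5 rose in the ureter, and 5 had a called difference, all toward the ureter, against 4.71% of all genes. The count was 1 with the block, 1 with U summed per mouse and 7 without UN 2. Under the block Hhip (2.26, adjusted p = 0.176) and Lef1 (1.51, adjusted p = 0.251) did not pass. With U summed per mouse, Shh (adjusted p = 0.112), Hhip (adjusted p = 0.19) and Lef1 (adjusted p = 0.201) were not called, and with all 9 bladders labelled N the differences of Hhip and Lef1 were 1.36 (adjusted p = 0.616) and 1.36 (adjusted p = 0.634).

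The matrix genes Col1a2, a chain of type I collagen, and Fn1, fibronectin, fell in the bladder only. Col1a2 was at 692, 788 and 1091 CPM in B and at 50.3 to 447 CPM in BB (median 140), against 86.1 to 262 CPM in U (median 220) and 105 to 663 CPM in UN (median 249), and the difference was 2.76 (SE 0.74, edgeR adjusted p = 0.0351). Fn1 had responses of 0.60 and -1.92 and a difference of 2.51 (SE 0.61, edgeR adjusted p = 0.019). Of 25 fibroblast and matrix genes, 6 fell and 4 rose in the bladder, 7 rose and 0 fell in the ureter, and 5 had a called difference, all toward the ureter, against 4.71% of all genes. The count was 10 with the block and 1 with U summed per mouse, where Col1a2 did not pass (adjusted p = 0.151). The median difference of this list was 1.26.

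Tbx2, a T-box transcription factor, had a difference of 2.61 (edgeR adjusted p = 0.0474), and of 1.49 (adjusted p = 0.452) with the block, and it did not pass with U summed per mouse (adjusted p = 0.193). Beside these falls, the sum of 20 smooth muscle markers was 11437 to 13520 CPM in B and 3544 to 8640 CPM in BB, and 3783 to 6314 CPM in U and 1103 to 8835 CPM in UN. The part of a changed makeup of the bladder wall in the falls was not tested.

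Part of the interferon response genes rose more in the bladder than in the ureter. Of 40 tested, 28 rose in the bladder and 13 in the ureter, against 10% and 13.8% of all genes, and those 13 all rose in both. In 12 of the 40, neither a response nor the difference was called. The difference was called in 18 (45.0%), all greater in the bladder, against 2.05% of all genes in that direction. The median response was 0.58 in the ureter and 2.23 in the bladder, and the median difference -1.53, against 0.08 over all genes. Of the 18, 8 rose in the bladder only and 10 rose in both organs, a split that rests in part on the thresholds.

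The promoters of the 2 genes with the largest called difference are shown because interferon-stimulated genes are activated through an element of the form GAAA, any 2 bases and GAAA, or TTTC, any 2 bases and TTTC on the other strand, marked here in capitals, where overlapping copies were each counted. These are the 250 bases before the RefSeq start on GRCm38.p6, 5′ to 3′ on the strand of the gene, at chr5:120777660-120777909 on the minus strand for Oas3 and chr19:34607707-34607956 on the plus strand for Ifit3b.
Oas3: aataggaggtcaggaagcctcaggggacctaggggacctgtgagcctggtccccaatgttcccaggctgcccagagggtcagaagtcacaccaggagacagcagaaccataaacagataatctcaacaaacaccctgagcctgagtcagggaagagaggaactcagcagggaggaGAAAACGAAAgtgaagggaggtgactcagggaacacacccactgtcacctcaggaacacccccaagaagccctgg
Ifit3b: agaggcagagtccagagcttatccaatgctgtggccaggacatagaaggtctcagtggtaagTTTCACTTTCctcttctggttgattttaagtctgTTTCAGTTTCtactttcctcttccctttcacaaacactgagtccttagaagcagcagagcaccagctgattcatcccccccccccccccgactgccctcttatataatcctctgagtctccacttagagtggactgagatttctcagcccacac

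In the window from 250 bases before to 50 after the start, these letters were found on either strand in 19 of 29 interferon list genes with a promoter in the table (65.5%), against 463 of 12290 tested genes (3.77%) and 1079 of all 27025 genes (3.99%). They were found in 8 of the 14 list genes with a called difference (57.1%) and in 11 of the 15 without (73.3%), and the share was not higher among the called genes.

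Oas3, an oligoadenylate synthetase that senses double-stranded RNA, was low without BBN in both organs, at 0.66 to 2.64 CPM in U (median 1.16) and 0.688, 0.698 and 0.736 CPM in B. It reached 2.68 to 23.4 CPM in UN (median 4.54) and 35.3 to 94.4 CPM in BB (median 59.5), so that every BB library exceeded every UN library. The responses were 2.70 (SE 0.49) and 6.42 (SE 0.79), with a difference of -3.72 (SE 0.82, edgeR adjusted p = 0.0102). Oasl1, of the same family, had responses of 2.97 and 6.29 and a difference of -3.31 (SE 0.70, edgeR adjusted p = 0.00731).

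Irf7, the factor that amplifies type I interferon production (chr7:141262706-141266481), was higher in U (27 to 40.1 CPM, median 36.3) than in B (12.8, 14.7 and 16.7 CPM), and lower in UN (21.6 to 151 CPM, median 63.1) than in BB (137 to 575 CPM, median 285) apart from an overlap of the highest UN with the lowest BB library. Those were the ureter and bladder of the same animal, mouse 7, with 151 and 137 CPM. In mice 2 and 9 the ureter held 63.1 and 57.9 CPM and the bladder 237 and 575 CPM. The difference of Irf7 was -3.37 (SE 0.56, edgeR adjusted p = 0.00127). Its responses were 1.04 and 4.40, and the ureter rise was lost in 8 of 41 alternatives.

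Ifit3b, of the interferon-induced tetratricopeptide family, had responses of 0.57 and 4.22. Its BB libraries (24.4 to 243 CPM) lay above B (3.99, 5.82 and 8.85 CPM), and UN (6.98 to 43.8 CPM) overlapped U (7.7 to 19.4 CPM). The difference of -3.65 (SE 0.79, edgeR adjusted p = 0.00928) was -2.63 (adjusted p = 0.145) with the block. Ifit3b and Ifit3 are near-identical neighbours, and their reads may be split between them. The other called genes were Isg15, Mx1, Oas2, Rsad2, Ifi44, Ifit3, Ifit1, Cmpk2, Oasl2, Rtp4, Mx2, Xaf1, Ifih1 and Bst2, with differences from -3.30 to -1.56.

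U exceeded B in 36 of the 40 interferon response genes, with a median of 0.77 against -0.01 over all genes. The 4 called higher in U were no larger a share than the 2009 of all 16592 genes. UN lay below BB in 33 with a median of -1.12, and 22 were called, against 1418 of all genes. Within mice, BB was above UN in 34 of 40 genes in mouse 2, in 34 in mouse 9 and in 6 in mouse 7, against 52.2%, 50.9% and 53.3% of all genes. The count of called genes ranged from 8, with all 10 BBN bladders, to 21, without UN 7. It was 10 with the mouse as a block and 9 with U summed per mouse. Antigen presentation genes, which respond to interferon as well, had 0 of 18 called in edgeR and DESeq2, and 3 at an unadjusted p under 0.05.

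**Figure D3:**
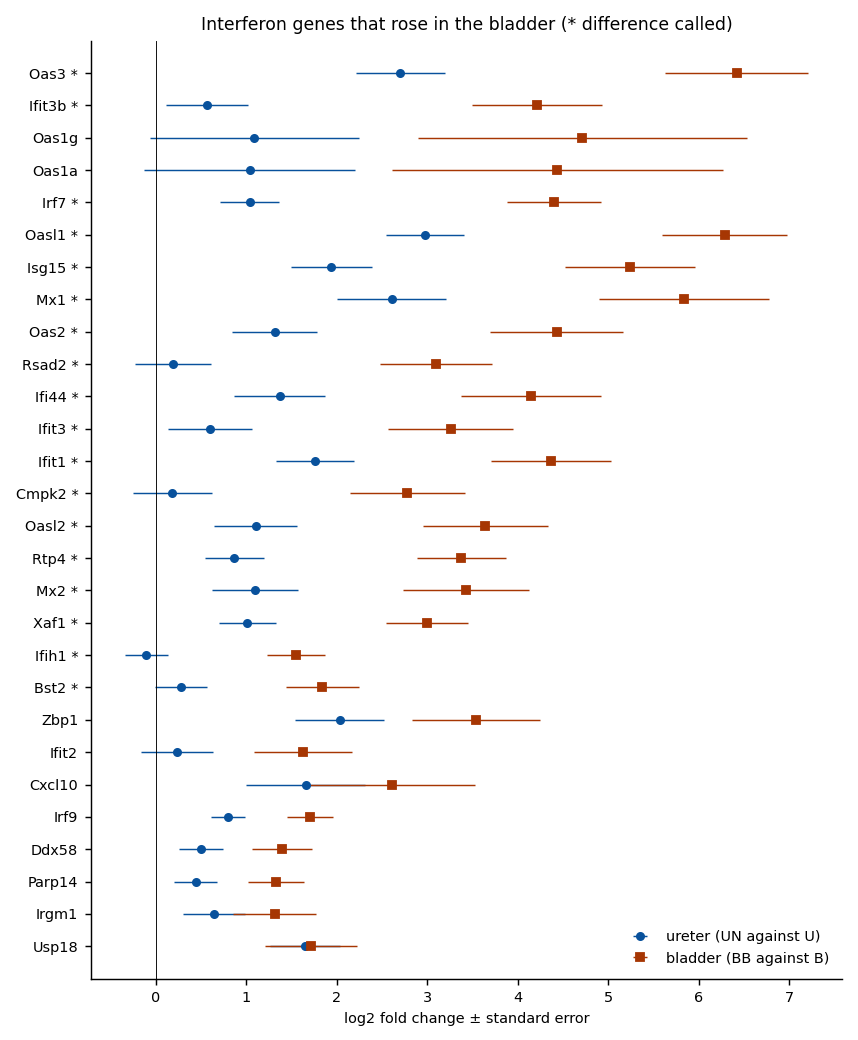
Log2 fold change with its standard error for the 28 interferon response genes that rose in the bladder, in the ureter (circles) and the bladder (squares), ordered by the difference, with an asterisk where the difference was called. The 18 called genes all have the square to the right of the circle, from Oas3 (2.70 and 6.42) to Bst2 (0.28 and 1.84).

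The genes that responded in both organs were led by genes nearly silent without BBN. Tff1, a trefoil peptide of mucosal repair, had 0 counts in U and 836 in UN, and in the bladder it went from 1 count to 2072, a ratio of 1123 (95% interval 201 to 44377, counting error only). Sectm1b had 0 counts in U and 189 in UN, and in the bladder the ratio was 346 (95.7 to 2863). Anxa10, an annexin, had responses of 7.61 and 7.84 (difference -0.22, SE 1.97, edgeR adjusted p = 0.969), and the wide error leaves room for a large difference either way. Bcl2l15, of the Bcl2 family, had responses of 7.18 and 8.09.

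Gabrp, a subunit of the GABA-A receptor, rose from 0.766 to 1.6 CPM in U to 2.09 to 687 CPM in UN (median 66.2), and from 0.815, 1.06 and 1.17 CPM in B to 194 to 744 CPM in BB (median 390). Its difference was -1.58 (SE 1.34, edgeR adjusted p = 0.58), and -3.96 (adjusted p = 0.0693) with the mouse as a block, where it passed. Krt14, the keratin of the most basal cells, rose from 6.09 to 10.8 CPM in U to 7.61 to 3085 CPM in UN (median 219), and from 5.06, 8.3 and 12.4 CPM in B to 1213 to 8229 CPM in BB (median 2095). The lowest UN value was that of UN 2. The difference of Krt14 was -1.99 (SE 1.37, edgeR adjusted p = 0.477), and -4.74 (adjusted p = 0.037) with the block.

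The ureter response of Krt5 was 2.32 (edgeR adjusted p = 0.0336) but 0.60 with the mouse as random effect (adjusted p = 0.708), 0.67 in voom with a weight per group (adjusted p = 0.531) and 1.51 without UN 3 (adjusted p = 0.128), and its bladder response of 1.60 did not pass (edgeR adjusted p = 0.266). Of 16 basal urothelial genes 12 rose in the ureter and 11 in the bladder, against 13.8% and 10% of all genes. Krt15 was the only member with a called difference, near the 6.76% of all genes. Under the block 0 were called toward the ureter and 2 toward the bladder, and the median difference of the list went from 0.11 to -0.84. The sum of the list was 430 to 578 CPM in U, 150 to 12697 CPM in UN, 2560 to 2768 CPM in B and 6326 to 18467 CPM in BB.

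Cdkn1a, the cell cycle inhibitor that p53 induces, rose from 18.7 to 25.6 CPM in U (median 20) to 83.8 to 369 CPM in UN (median 134), and from 61.9, 63.7 and 71.4 CPM in B to 142 to 351 CPM in BB (median 198), without overlap in either organ. Its responses were 2.97 (SE 0.32) and 1.69 (SE 0.40), and the difference of 1.29 (SE 0.47, edgeR adjusted p = 0.125) did not pass, but passed without UN 2 (1.40, adjusted p = 0.0635). Of 20 p53 target genes 7 rose in the ureter and 5 in the bladder, against 13.8% and 10% of all genes. The 2 called differences, against 4.71% of all genes in that direction, were those of Trp53i11, which fell in the bladder only (1.87, SE 0.43, edgeR adjusted p = 0.0142) and Gadd45a, for which neither response passed (1.24, edgeR adjusted p = 0.0703), and Gadd45a did not pass with the block (1.22, adjusted p = 0.102) or with U summed per mouse (adjusted p = 0.199).

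The cytokine genes Il1b and Tnf rose in both organs, Il1b by 4.30 and 4.34 and Tnf by 1.79 and 2.41. The differences were -0.04 (SE 1.19, edgeR adjusted p = 0.991) and -0.61 (edgeR adjusted p = 0.787). The ureter rise of Tnf was lost in 8 of 41 alternatives, among them U summed per mouse (adjusted p = 0.2) and without UN 3 (1.42, adjusted p = 0.119). Of 24 TNF and NF-kB genes, 17 rose in the ureter and 15 in the bladder, all 15 in both, against 13.8% and 10% of all genes. In edgeR or DESeq2 0 of them had a called difference (2 at an unadjusted p under 0.05), against 6.76% of all genes in edgeR. In edgeR 1 was called toward the ureter without UN 2, and 1 toward the bladder with the block. Neutrophil markers rose likewise, 9 of 10 in the ureter and 7 in the bladder, with 0 differences called and 0 at an unadjusted p under 0.05. Jchain, the joining chain of secreted antibodies, rose by 4.47 and 5.46.

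Cell division genes rose in both organs. Mki67, a proliferation marker, went from 1.71 to 3.81 CPM in U (median 3.06) to 6.01 to 42.9 CPM in UN (median 11.5), and from 2.06, 2.15 and 3.19 CPM in B to 28.7 to 71.7 CPM in BB (median 52.3). Its difference was -1.83 (SE 0.60, edgeR adjusted p = 0.0885), and it was lost in 26 of 42 alternatives, among them U summed per mouse (adjusted p = 0.223) and all 9 bladders labelled N (adjusted p = 0.219). Top2a, which untangles DNA before division, had responses of 2.58 and 3.96 (difference -1.38, edgeR adjusted p = 0.266). Of 30 cell cycle genes, 23 rose in the ureter and 29 in the bladder, against 13.8% and 10% of all genes. A called difference was found in 2, both toward the bladder against 2.05% of all genes in that direction, with a median difference of -1.30. The count was 14 with the block and 0 with U summed per mouse.

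Squamous differentiation genes, which build the cornified layer of skin, had a median response of 3.02 in the ureter and 6.85 in the bladder over 28 genes. Of these, 20 and 21 were called higher, against 13.8% and 10% of all genes. Sprr2f, a cornified envelope protein, was at 33.7 to 65.4 CPM in U and 4.17 to 436 CPM in UN (median 194), against 1.16, 1.78 and 5.35 CPM in B and 324 to 1126 CPM in BB (median 723). The difference was -5.81 (SE 1.08, edgeR adjusted p = 0.00329), and Sprr2g followed with -4.47 (SE 1.10, edgeR adjusted p = 0.0215). These 2 were the members called toward the bladder (11 with the block), against 2.05% of all genes in that direction. Toward the ureter 0 were called, and 3 without UN 2. The Sprr2 genes are close paralogs, so they are not independent.

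Ltf, the iron-binding lactoferrin of neutrophils and epithelia, rose from 0.815, 1.06 and 1.1 CPM in B to 307 to 2039 CPM in BB (median 789), and from 0.921 to 1.7 CPM in U to 4.89 to 130 CPM in UN (median 7.97). Its difference was -5.10 (SE 1.27, edgeR adjusted p = 0.0224). Fosl1, a subunit of the AP-1 factor, was the 1 immediate early gene of 18 with a called difference, near the 6.76% of all genes (-3.2, edgeR adjusted p = 0.0447), which did not pass with U summed per mouse (adjusted p = 0.139). Toward the ureter 0 genes of that list were called, but 4 without UN 6 and 3 with the block. With all 9 bladders labelled N, neither Ltf (adjusted p = 0.126) nor Fosl1 (adjusted p = 0.192) passed.

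Of the genes that fell in both organs, Egfl6, a secreted protein of the basement membrane, fell from 7.24 to 11.5 CPM in U to 0.439 to 3.14 CPM in UN and from 7.4, 9.02 and 11.3 CPM in B to 0.207 to 1.13 CPM in BB, without overlap. Its responses were -2.72 (SE 0.42) and -3.78 (SE 0.50), with a difference of 1.07 (edgeR adjusted p = 0.394). Cyp4f15, a P450, fell from 341, 352 and 388 CPM in B to 0.495 to 3.92 CPM in BB and from 34.8 to 69.9 CPM in U to 0 to 23.8 CPM in UN. The fall of Cyp4f15 was greater in the bladder (difference 4.78, SE 1.01, edgeR adjusted p = 0.00767). Ankfn1 had responses of -3.34 and -8.36 (difference 5.01, edgeR adjusted p = 0.0264, and 3.09 with adjusted p = 0.238 under the block). With U summed per mouse the adjusted p of Ankfn1 was 0.119, and with all 9 bladders labelled N its difference was 2.16 (adjusted p = 0.622). Hrh3, a histamine receptor, had responses of -3.0 and -5.30, and Ttr, the carrier of thyroxine and retinol, had a difference of 2.58 (edgeR adjusted p = 0.415). The ureter fall of Ttr was lost in 13 of 41 alternatives. Its bladder fall was lost in 2, among them all 9 bladders labelled N (-0.74, adjusted p = 0.765). Over the alternatives its difference ranged from -2.01 to 9.34 and was called in 5.

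**Figure D4:**
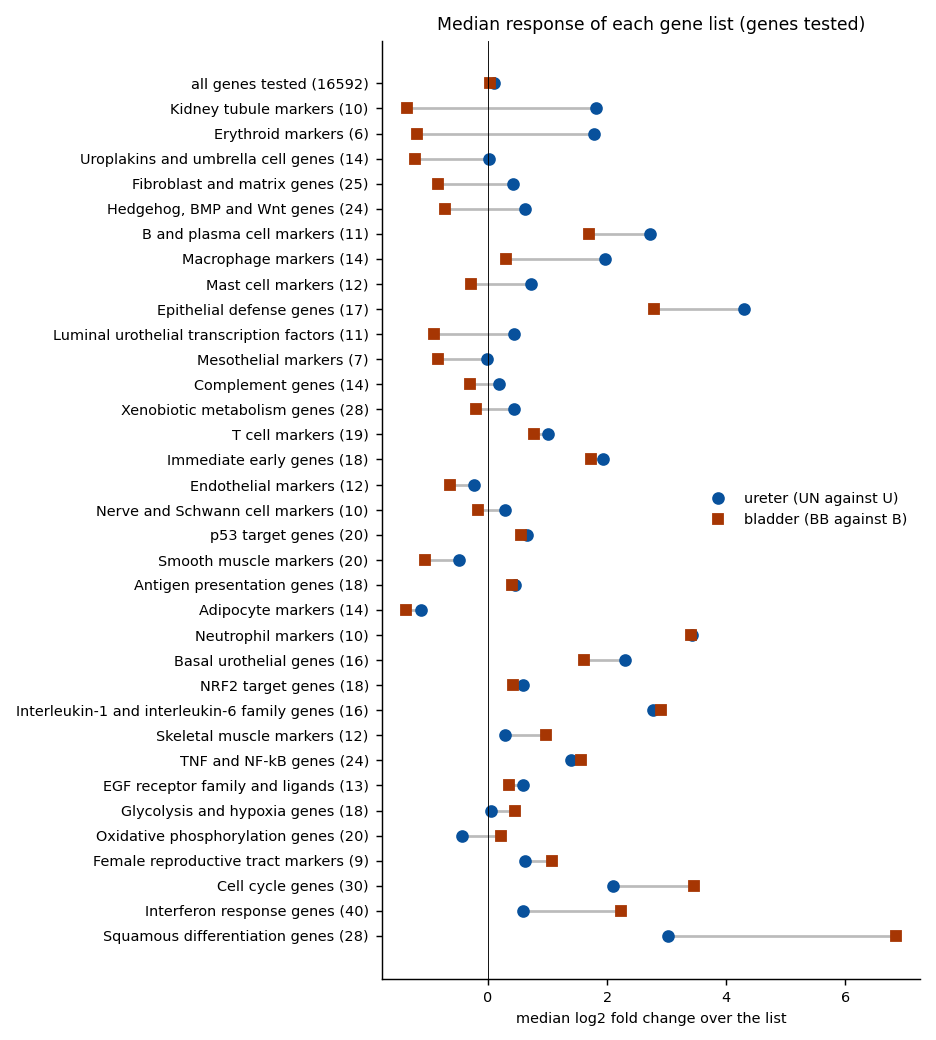
Median log2 fold change over the tested genes of each of 34 gene lists in the ureter (circles) and the bladder (squares), ordered by the median difference, with all genes at the top. The interferon list (0.58 and 2.23) and the squamous list (3.02 and 6.85) lie further right in the bladder, and the TNF and NF-kB list (1.39 and 1.56) has both medians close together.

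The other lists are given against the 6.76% called over all genes. In edgeR 0 were called among 19 T cell, 11 B and plasma cell, 12 endothelial, 20 smooth muscle, 12 skeletal muscle or 6 erythroid genes, and 1 was called among 14 adipocyte, 12 mast cell, 14 complement, 10 nerve, 7 mesothelial, 20 oxidative phosphorylation, 16 interleukin and 11 luminal factor genes. Over the 9 lists with 0 called, which hold 132 genes, 15 differences had an unadjusted p under 0.05 (4 of the erythroid, 4 of the skeletal muscle and 2 of the smooth muscle genes among them), and DESeq2 called 3, 2 of them smooth muscle markers and 1 a skeletal muscle marker. Under the block edgeR called 1 smooth muscle gene toward the ureter and 2 toward the bladder, 1 skeletal muscle gene and 1 erythroid gene, and without UN 6 it called 2 smooth muscle genes and 1 skeletal muscle gene. Of 17 epithelial defense genes 15 rose in the ureter and 10 in the bladder, with 2 called toward the bladder, as were 2 of 9 female reproductive tract markers. Of 18 NRF2 target genes 2 were called toward the ureter. B and plasma cell markers rose in 10 of 11 genes in the ureter and in 3 in the bladder, which is not a shown difference. Kidney tubule markers had 4 of 10 called toward the ureter at sums of only 8 to 67 CPM in any library. The count was 2 without UN 2, 2 with the block and 0 with U summed per mouse. Leaving out UN 2 also changed the counts to 0 for the adipocyte and complement lists, 2 for mast cell, 3 for luminal factor and NRF2 genes toward the ureter, and 4 for oxidative phosphorylation genes.

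The levels of a gene in the 2 organs were also compared without and with BBN. The gap between the organs was U against B without BBN and UN against BB with it. The second is the first plus the difference of responses, so the measures are not independent. The 1122 genes were called on that difference, so the choice itself favours a changed gap. Nothing is read from how the gaps of chosen genes moved. The gap was smaller with BBN in 798 of the 1122 called genes (71.1%), against 8507 of all 16592 (51.3%). Its median size went from 1.63 to 0.78 on the log2 scale for the called genes, and from 0.58 to 0.60 over all genes. For the genes that responded in both organs in the same direction, the gap was smaller in 422 of 1164 (36.3%) and its median rose from 0.80 to 1.25. Of the 1122, 755 differed between U and B by a called amount and 398 between UN and BB, and for 117 both gaps were called with opposite sign. Over all genes, 4019 (24.2%) differed between U and B and 4469 (26.9%) between UN and BB.

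**Figure D5:**
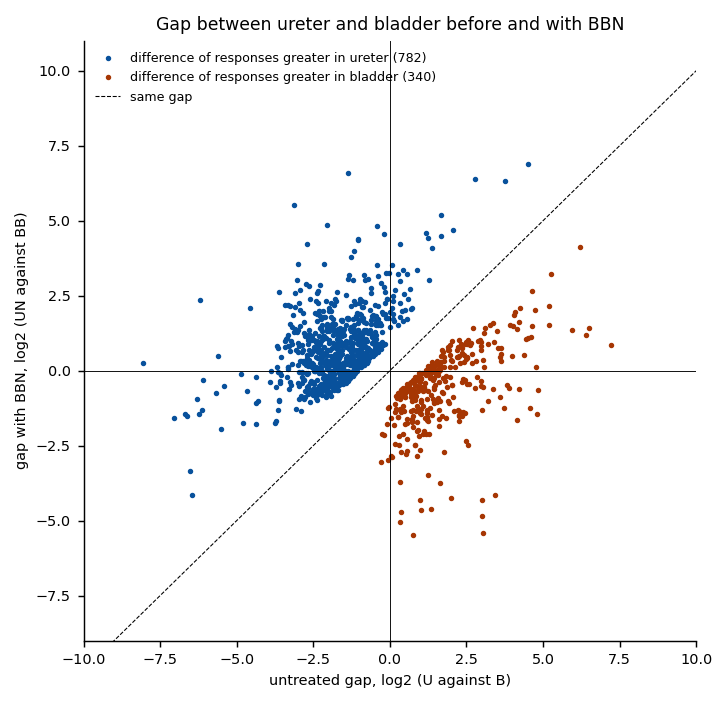
Log2 gap between ureter and bladder without BBN (U against B, x axis) and with BBN (UN against BB, y axis) for the 1122 genes with a called difference of responses, with a dashed line where both gaps are equal. The 782 genes with a greater response in the ureter lie above the line, mostly with a gap below 0 without BBN, and the 340 with a greater response in the bladder lie below it.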

How the data were processed

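Ureter and bladder RNA of female BALB/c mice was made into SMARTer HT and Nextera XT libraries, which do not mark strand, and sequenced as paired reads. The authors mapped the reads to GRCm38/mm10 and deposited estimated counts for each gene symbol without normalization, some of them fractional. The submitters' processing notes name TopHat2 2.1.1 and Cuffdiff 2.2.1, and the program that counted reads is not given in the sources used here. The values were rounded to whole numbers, and 24421 symbols were read, of which 16592 passed filterByExpr.

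Responses and their difference were tested in a single edgeR 4.0.16 quasi-likelihood fit (R 4.3.3, TMM, group means), with Benjamini-Hochberg FDR under 0.1 and at least 2-fold, the thresholds of the study. limma 3.58.1, DESeq2 1.42.0, other filters and scalings, RIN, library code range, more bladders, the UT libraries in the fit and leaving out single libraries were alternatives. The fit without UN 2 and UN 6 was chosen after seeing the data. On counts simulated for the difference of responses (16289 genes tested, 200 changed in UN alone), 61% of 4-fold and 87% of 8-fold changes were recovered with 7 false calls, and with no change 0 of 16314 genes were called. The simulated libraries were independent and had the same dispersion of a gene in every group. In the data the groups differed widely in dispersion and mice were shared, so these rates cannot be carried over to them.

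UN and BB libraries of mice 2, 7 and 9, and U and B libraries of a mouse, came from the same animal, so the mouse pairs them. Deviations from the group means correlated with a median of 0.293 in the 3 BBN pairs and -0.0326 in 39 pairs from different mice, and 0.00283 in 6 untreated pairs. Within groups, chi-square divided by its degrees of freedom for any library pair was 7.72 or more, so none was counted as a copy. In the fit with the mouse as a block, only mice with both organs inform the difference. Depth is the total count per library, and intervals of counts cover counting error only.

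The genes named are those of a rule, of which not all are described: in each class and direction the 5 largest differences (for both organs, the largest lesser response) among genes of at least 5 CPM in a group with at most 1 BBN library of a responding organ not beyond all its untreated libraries, up to 4 members of each of 34 gene lists, ordered by called difference, response and level, and 19 fixed marker genes. Unnamed gene models were counted and not named. A member of the interferon list is not reported here by name. The comparison, the lists and the members were chosen with earlier results of these data known. Gene coordinates are from GENCODE vM21 and promoters from RefSeq, where 29 of the 40 interferon genes matched.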

Additional observations from a re-analysis of the deposited data

Results flagged for a closer look

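Some libraries lay far from the rest of their group, by a gap test at the 95% level on log2(CPM + 1). Of 249 groups of 4 to 10 values tested, 28 held such a library, and chance gives about 5%, or 1 in 20. UN 2 was low in Gsdmc2 (1.07), Gsdmc3 (0.58), Upk2 (0.45), Snx31 (0.45), Upk3b (1.57), Upk3a (2.11), Shh (0.0), Tbx2 (0.69) and Sprr2f (2.37), and high in Esm1 (4.19). UN 6 was high in Dmgdh (1.63), Dab1 (3.38), Cela1 (6.95) and Ankfn1 (2.05), and its total count of 4675081 was low. Kcns3 was high in UN 9 (4.56). Among U, L2 stood apart in Casq1 (2.98), Cyp2a5 (1.39) and Upk2 (6.14), and L3 in Col23a1 (4.91), Dmgdh (0.41), Col1a2 (6.44) and Mrc1 (4.64). Among BB, bladder 7 stood apart in Ldha (11.32) and Chdh (4.42), bladder 9 in Hrh3 (0.98) and Ttr (2.54), and bladder 5 in Top2a (5.34). None of the 66 called differences of the named genes was lost without UN 2.

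The difference of responses itself passed the test (edgeR) for 66 genes described singly above, given here in log2 units as ureter minus bladder. The interferon genes named above only with a range of differences, and Ftl1 and Fabp4, were also called and are not among the 66. Of genes that responded in the ureter only, these were Gsdmc2 (5.27), Gsdmc (5.12), Gsdmc3 (4.78), Krt15 (4.81), Spp1 (5.05), Trem2 (3.0), Timp1 (4.07), Tpsab1 (2.59), Thy1 (2.13), Wnt2 (3.31), Casq1 (-4.60), Col23a1 (-3.41), Rhbg (-2.44), Cyp2u1 (-2.16) and Prkar2b (-2.14). Of genes that responded in the bladder only, these were Cyp2a5 (-7.60), Osr2 (-6.37), Cyp4a12a (-5.40), Cyp4a12b (-5.37), Tgm5 (-5.03), Btc (-2.26), Ccne1 (-2.06), Ldha (-1.45), Pgk1 (-1.06) and Ifit3b (-3.65) for rises, and Dmgdh (8.53), Dab1 (6.04), Cela1 (5.67), Fam25c (5.22), Wfdc15b (5.14), Adh1 (2.89), Gstm1 (2.67), Cyp1a1 (4.01), Upk2 (4.06), Snx31 (3.65), Upk3b (2.49), Shh (3.03), Lef1 (2.89), Col1a2 (2.76), Fn1 (2.51), Tbx2 (2.61) and Trp53i11 (1.87) for falls. Of genes that moved in opposite directions, these were Bbox1 (6.10), Esm1 (5.39), Ugt2b34 (5.35), Fstl4 (4.91), Col12a1 (3.24), Chdh (-5.21), Kcns3 (-4.63), Ablim3 (-4.00), Phgdh (-3.86) and Ffar4 (-3.40). The rest were Ankfn1 (5.01), Cyp4f15 (4.78), Oas3 (-3.72), Irf7 (-3.37), Oasl1 (-3.31), Sprr2f (-5.81), Sprr2g (-4.47), Ltf (-5.10), Fosl1 (-3.2), Mki67 (-1.83), Upk1a (4.00), Hhip (2.90), Gadd45a (1.24) and Mrc1 (1.61).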

How the results depend on the processing

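The counts depended on the bladder libraries, on the untreated mice and on the fitting method. With all 9 bladders labelled N there were 309 genes greater in ureter, 128 greater in bladder, 37 in ureter only, 324 in bladder only and 23 opposite, and with all 10 BBN bladders 284, 103, 35, 294 and 17. With U summed per mouse they were 266, 149, 19, 332 and 7, with 594 in both organs. An FDR under 0.05 gave 478, 220, 72 in ureter only and 22 opposite. DESeq2 gave 527 greater in bladder and 279 in ureter only, voom with a weight per group 1278, 804, 349 in ureter only and 1083 in bladder only, and the mouse as a random effect 553 greater in bladder and 28 opposite. With the mouse as a replicate block, 517 were greater in bladder and 716 in ureter, and of 66 named genes with a called difference 26 were no longer called, and Krt14 and Gabrp were called instead. Of the same 66, 32 were lost with U summed per mouse, 23 with 9 and 26 with 10 bladders, and 19 with the UT libraries in the fit. The library code range as covariate left 21 opposite. Within the first code range 654 were greater in ureter and 366 in bladder. Without UN 2 and UN 6 there were 1250, 583, 327 in ureter only and 67 opposite, and 1063 of the 1122 genes were still called.

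Leaving out 1 library in turn gave 395 to 1066 genes greater in ureter, 162 to 466 greater in bladder, 57 to 334 in ureter only, 366 to 867 in bladder only, 869 to 1337 in both organs and 25 to 62 opposite. B 1, B 2 and B 3 moved most counts by over 1.5 times, with 27, 28 and 25 opposite, 57, 81 and 62 in ureter only, and 366, 442 and 399 in bladder only. The ureter-only count was 243 without UN 2, 334 without UN 9, 87 without U L1 and 83 without U L2. Reversed values were those of Ftl1 (difference -0.15 with 9 and -0.12 with 10 bladders, bladder response 0.95 with either) and Fabp4 (difference -0.42 and -0.22). The cause was not tested, except that fewer libraries give a test less power. Library totals without composition factors moved the median ureter response of all genes from 0.09 to 0.20. Precision was limited by the spread of UN, by 3 untreated mice and by the low total of UN 6.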
